A study of Arabidopsis thaliana with 6 samples.

Results

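Expansins and xyloglucan endotransglucosylase/hydrolases (XTHs) are the proteins that loosen and remodel the primary wall of a growing plant cell. Expansins loosen the contacts between cellulose and the other wall polymers without cutting them, and work best in an acidic wall. XTHs cut xyloglucan, the hemicellulose that lies against cellulose, and most of them rejoin the cut end to another chain, while a small subgroup mainly hydrolyses it. In roots both families are known from the elongation zone, from root hairs and from sites where lateral roots emerge.

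The members were 54 genes chosen by their identifiers, 26 expansins and 28 XTH genes, among the 32833 genes of the deposited table. The expansins comprised 19 alpha-expansins (EXPA), 3 beta-expansins (EXPB), 3 expansin-like A genes (EXLA) and 1 expansin-like B gene (EXLB). The XTH genes comprised 22 of groups I and II, 2 of group III-A, whose members are known as hydrolases, and 4 of group III-B. All 54 identifiers carry these names in the TAIR10.1 annotation, from which all coordinates are taken.

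RNA was sequenced from whole roots of Arabidopsis thaliana, 3 samples of xal1-2 and 3 samples of wild type (WT), all in the Col-0 accession. The xal1-2 plants carry a loss-of-function allele of XAANTAL1 (XAL1), a MADS-box transcription factor gene, and according to the series their roots are short, with slow cell division. Each sample was a pool of about 60 plants taken 8 days after sowing, with roots cut free of hypocotyl and cotyledons, and all plants grew untreated on 0.2X MS salts with 1% sucrose at 22 °C under 16 h of light and 8 h of dark. The mutant is a single allele, whole roots mix all cell types and zones, and in such bulk samples fewer cells of a type and less RNA per cell cannot be told apart.

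Libraries held 6978879 to 9247089 reads assigned to genes. Values are scaled counts, the reads of a gene divided by the size factor of its library, listed for replicates 1, 2 and 3 of each genotype. A log2 fold change sets xal1-2 over WT after taking log2(scaled count + 1) and comes with a standard error (SE), and a gene is called when its limma adjusted p over all 24441 genes tested is under 0.05. XAL1 itself had 76.5, 102.0 and 103.2 scaled counts in xal1-2, against 263.8, 250.1 and 268.7 in WT, so 36.0% of the WT mean remained. Root markers were present in every library, with the 7 endodermis markers summing to 4500 to 4871 in xal1-2 and 5831 to 7682 in WT. Green tissue markers were present too, summing over 9 genes to 2971 to 5727 in xal1-2 and 4610 to 5928 in WT, with LHCB1.1 and RBCS3B close to 0.

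The families differed in how many members were called. Of 25 XTH genes tested 5 fell in xal1-2, namely XTH33, XTH9, XTH23, XTH21 and XTH4, and of 25 expansins tested 2 fell, EXLA2 and EXPB3. Over all genes tested the background was 3.93% called, 2.27% lower and 1.66% higher. With a fold above 1.5 required as well, the counts were the same, against a background of 1.71% lower and 1.16% higher. No member rose by limma, edgeR or DESeq2; at an unadjusted p under 0.05, 3 expansins and 0 XTH genes were higher, against 9.02% of all genes tested, and 7 expansins and 13 XTH genes were lower, against 10.5%. The background of edgeR was 3.07% lower and 2.49% higher, and that of DESeq2 3.54% lower and 2.05% higher. The XTH values lay below 0 for 22 of the 25 tested, with a median log2 fold change of -0.51, and those of the expansins for 15 of 25, with a median of -0.14, while 50.5% of all genes tested lay below 0, with a median of -0.00. Whether the families differ from each other was not tested. The other 4 members, EXPA2, XTH1, XTH6 and XTH25, had 0 reads in every library and were not tested.

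**Figure D1:**
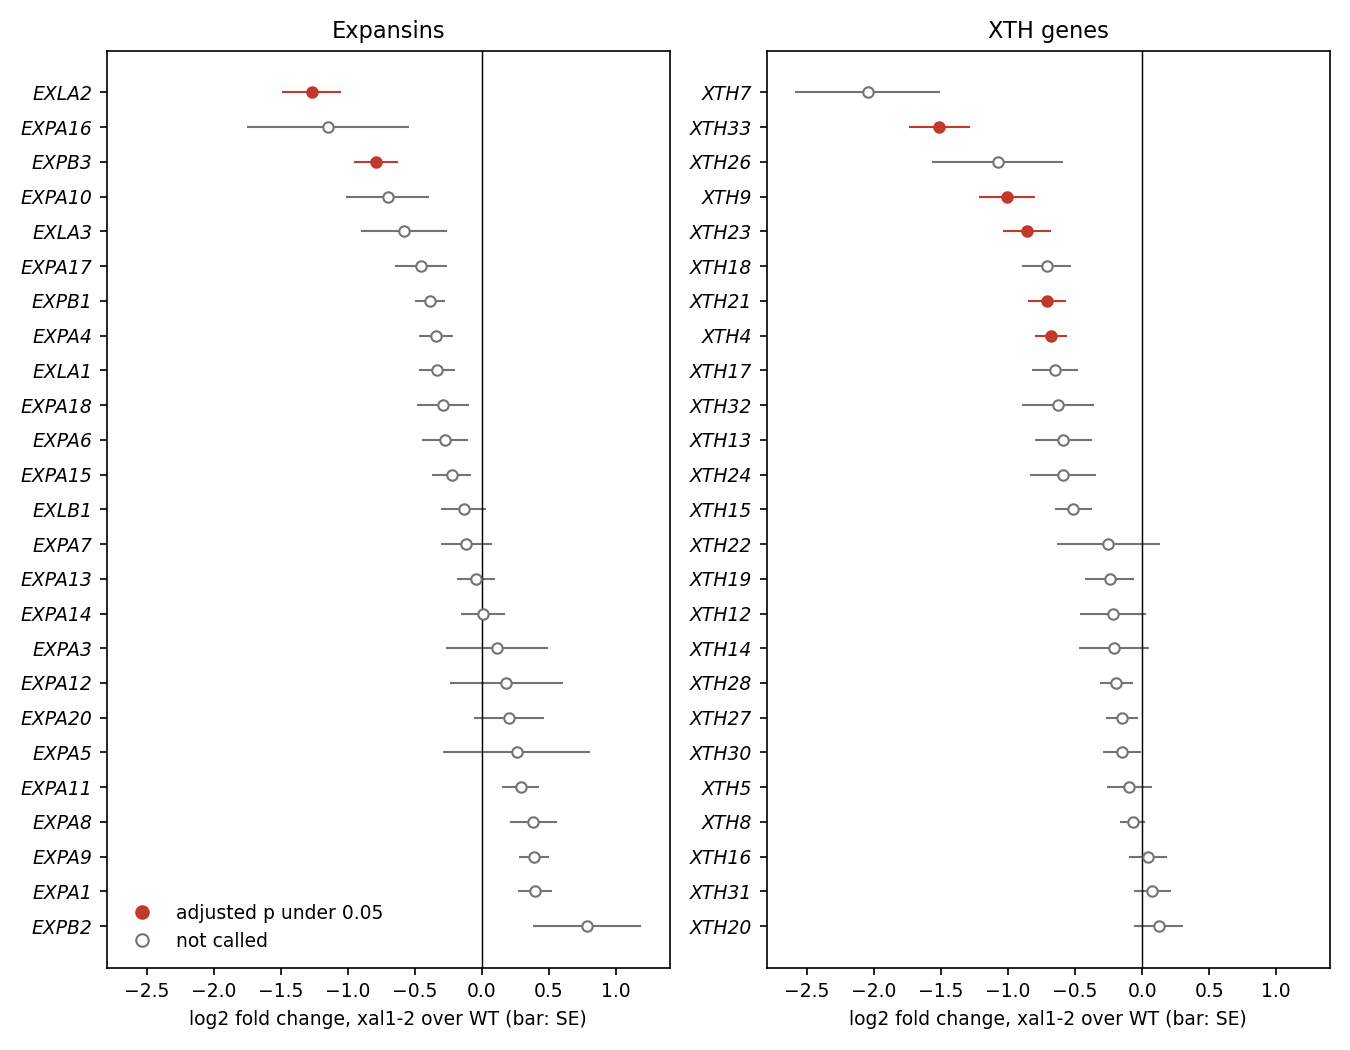
Log2 fold change of xal1-2 over WT (x axis) for the 25 expansins (left) and the 25 XTH genes (right) that had reads, sorted by size. Bars are standard errors of the limma fit with 3 libraries a genotype, and filled points are the 2 expansins and 5 XTH genes called lower.

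Levels were uneven within each family. Set per kilobase of exon, XTH14, known from root hairs, and XTH31, a group III-A enzyme with mainly hydrolase activity, stood above all other XTH genes, at 1631 and 1582 scaled counts per kb in xal1-2, against 1886 and 1482 in WT. In WT XTH15 came next, at 518 per kb in xal1-2 and 728 in WT. These 3 genes held 44.6% ± 3.74 of the summed XTH level per kb in xal1-2 and 38.7% ± 3.01 in WT (SD, n = 3 each). Among expansins EXPA4 was highest, at 923 per kb in xal1-2 and 1174 in WT, followed by EXPA18 and EXPA7, both known from root hairs, at 607 and 653 in xal1-2 against 747 and 707 in WT.

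EXPA4 was at 1331, 1560 and 1265 scaled counts in xal1-2, against 1704, 1533 and 2048 in WT. Its groups overlapped, since xal1-2 replicate 2 lay above WT replicate 2, and it was not called (log2 fold change -0.34, SE 0.13, adjusted p = 0.165). XTH31, with 1868, 2698 and 2044 in xal1-2 and 1951, 2181 and 2063 in WT, was also not called, and xal1-2 held both its lowest and its highest library (0.08, SE 0.14, adjusted p = 0.782). The next levels per kb in WT, XTH30 and XTH18, differed by less than their spread over libraries, as did EXPA18 and EXPA7.

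Summed per kb over the family, XTH genes gave 6884, 9274 and 8846 in xal1-2, against 10972, 11149 and 9543 in WT, with no overlap between the genotypes. The expansin sum was 5215, 5942 and 5088 in xal1-2 and 6437, 5930 and 6399 in WT, where xal1-2 replicate 2 reached the lowest WT library. The highest xal1-2 library stayed under the lowest WT library for 9 of the 25 XTH genes and 3 of the 25 expansins, against 11.7% of all genes tested. The reverse held for 0 XTH genes and 2 expansins, against 12.1%.

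**Figure D2:**
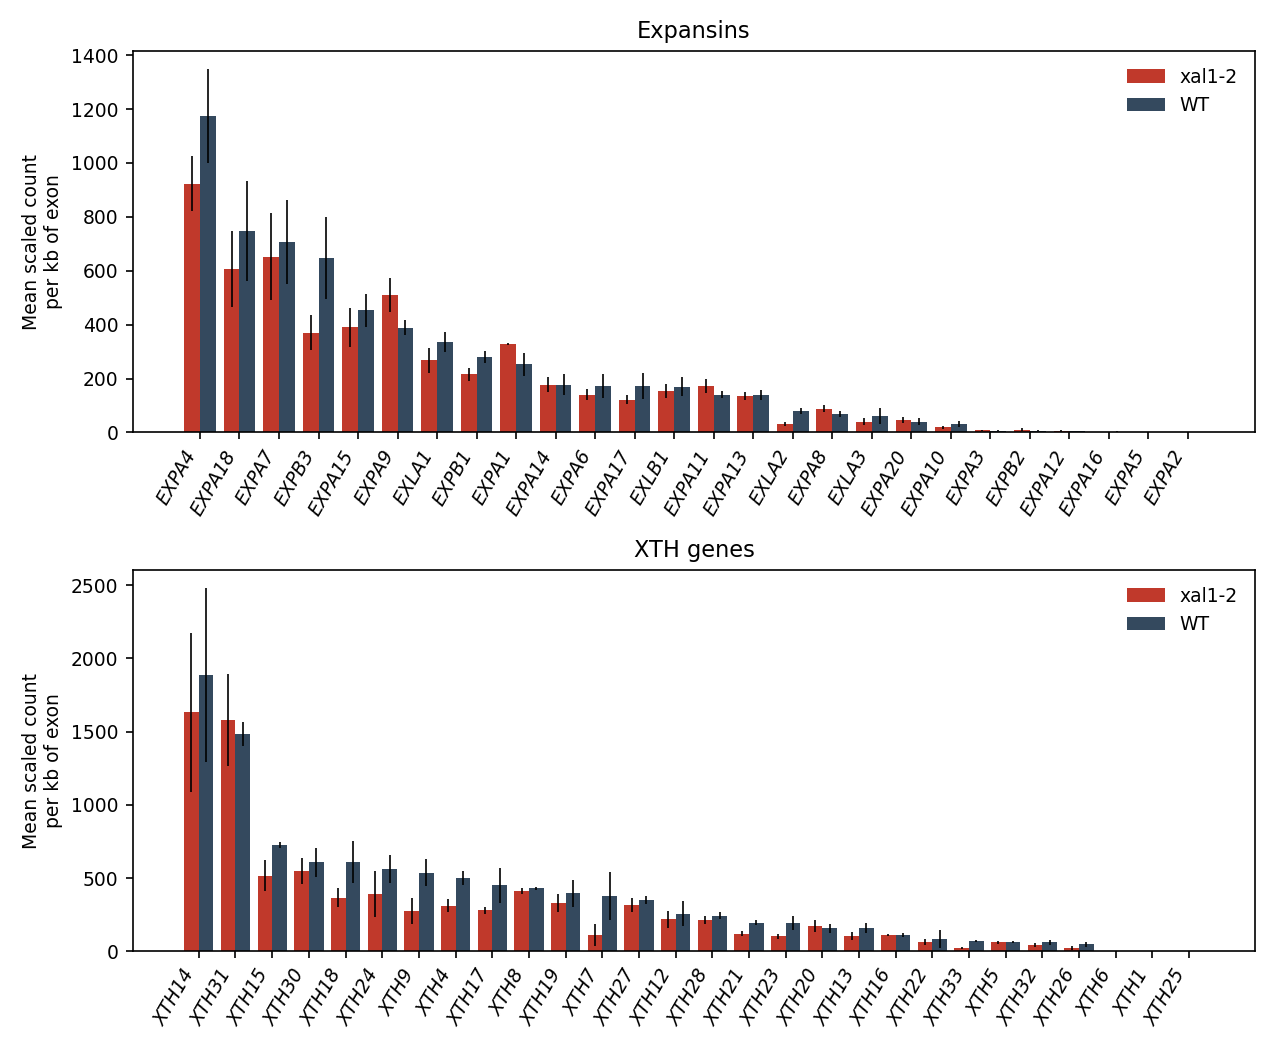
Mean scaled count per kilobase of exon (y axis, linear) of all 54 members, with xal1-2 left of WT for each gene and bars for the SD of 3 libraries. Expansins are above and XTH genes below, sorted by their WT level, and XTH14 and XTH31 stand apart from the other XTH genes.

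Among the XTH genes, XTH33 showed the largest change of those called. It belongs to group III-B and its product is known to be tied to the plasma membrane. XTH33 (AT1G10550, chromosome 1, 3479066 to 3481041, minus strand) had 21.7, 34.6 and 33.5 scaled counts in xal1-2, against 89.0, 92.6 and 75.9 in WT (log2 fold change -1.51, SE 0.23, adjusted p = 0.00593). The genotypes were far apart, with the highest mutant library under the lowest WT library, and the mutant mean was 34.9% of the WT mean. XTH27, XTH28 and XTH30, the other group III-B members, were not called, with log2 fold changes of -0.19 to -0.15.

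XTH9 (AT4G03210, chromosome 4, 1415617 to 1417444, plus strand), of groups I and II, had 269.4, 487.1 and 504.8 scaled counts in xal1-2, against 783.8, 705.2 and 974.2 in WT (log2 fold change -1.01, SE 0.21, adjusted p = 0.0263). Replicate 1 was the lowest of the mutant libraries by a wide margin, but the other two also lay below WT. XTH4 (AT2G06850, chromosome 2, 2763449 to 2765743, plus strand), first described as an endoxyloglucan transferase, had 431.4, 570.5 and 510.0 in xal1-2, against 892.3, 764.7 and 755.8 in WT (-0.68, SE 0.12, adjusted p = 0.0141). Neither genotype had a library out of line for XTH4.

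XTH21 (AT2G18800, chromosome 2, 8144881 to 8146477, plus strand), a root-expressed member whose loss is known to shorten the primary root, had 118.7, 150.8 and 163.2 scaled counts in xal1-2, against 237.7, 252.3 and 213.9 in WT (log2 fold change -0.71, SE 0.14, adjusted p = 0.0227). XTH23 (AT4G25810), also called XTR6, had 124.4, 134.9 and 169.4 in xal1-2, against 222.5, 225.9 and 340.0 in WT (-0.86, SE 0.18, adjusted p = 0.0257). In both genes the genotypes did not overlap, and WT replicate 3 was the highest library for XTH23. XTH23 lies at chromosome 4, 13128394 to 13129927, on the plus strand, close to XTH14 at 13130291 to 13131860, which was not called. The difference between these neighbours was not tested.

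EXLA2 (AT4G38400, chromosome 4, 17978422 to 17979740, minus strand), an expansin-like gene whose product has no established wall-loosening activity, had 29.7, 46.1 and 34.4 scaled counts in xal1-2, against 74.9, 90.4 and 102.4 in WT (log2 fold change -1.27, SE 0.22, adjusted p = 0.0121). Its mutant mean was 41.2% of the WT mean. EXLA1 and EXLA3, neighbours on chromosome 3, were below 0 without a call. EXLA1 had 257.9, 255.5 and 341.5 in xal1-2 and 387.6, 312.9 and 372.9 in WT (-0.33, SE 0.14, adjusted p = 0.204), and its groups overlapped. Its locus overlaps AT3G45980 on the opposite strand, so its counts carry the uncertainty of an unstated strand setting. EXLA3 was at -0.58 (SE 0.32, adjusted p = 0.354), with its highest value, 132.5, in WT replicate 3.

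The beta-expansin gene EXPB3 (AT4G28250, chromosome 4, 13999625 to 14002124, minus strand) had 755.6, 921.9 and 645.9 scaled counts in xal1-2, against 1183, 1152 and 1718 in WT (log2 fold change -0.79, SE 0.17, adjusted p = 0.0263). Beta-expansins are, like alpha-expansins, established wall-loosening proteins. EXPB1 had 348.1, 348.7 and 287.7 in xal1-2, against 395.2, 463.9 and 427.7 in WT, groups that did not overlap, without a call (-0.39, SE 0.11, adjusted p = 0.0855). EXPB2 was close to silent, with 56 reads over all 6 libraries.

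**Figure D3:**
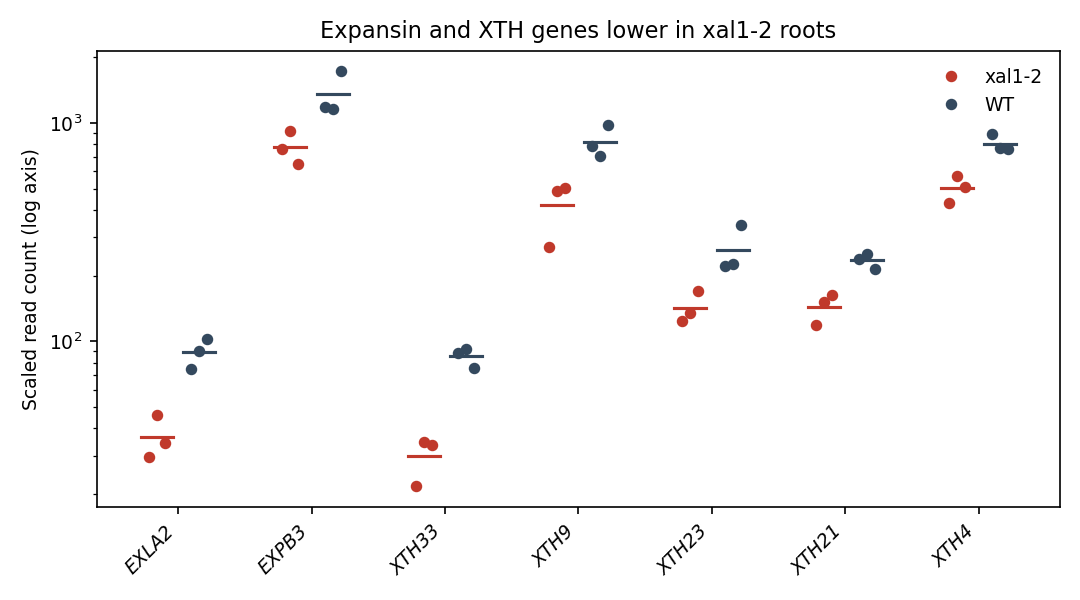
Scaled read counts (log y axis) of the 7 called members in each library, xal1-2 left of WT, with lines at the means of 3 libraries. In all 7 the highest xal1-2 library lies below the lowest WT library.

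All 7 kept a log2 fold change below 0 when 1 library was left out, a sign that groups without overlap cannot lose in this way, while calls were lost with the 5 libraries that remained. Over the 6 fits that each leave out 1 library, the log2 fold change was -1.63 to -1.30 for XTH33 and -1.44 to -1.13 for EXLA2. It was -1.17 to -0.71 for XTH9, -0.99 to -0.66 for XTH23 and -0.93 to -0.61 for EXPB3. For XTH21 and XTH4 the ranges were -0.80 to -0.57 and -0.77 to -0.57. Without xal1-2 replicate 1 none of the 7 was called: adjusted p was 0.0503 for XTH33, 0.0964 for EXLA2, 0.103 for XTH4, 0.104 for XTH9, 0.116 for XTH21, and 0.173 for both EXPB3 and XTH23. Calls over all genes then numbered 81, against 961 with every library. Without WT replicate 2 XTH33 alone was called (0.0438), and adjusted p was 0.0554 for XTH4, 0.0611 for EXPB3, 0.0649 for EXLA2, 0.0654 for XTH23, 0.0693 for XTH9 and 0.114 for XTH21. XTH21 and XTH23 also missed the threshold without xal1-2 replicate 2 (0.0581 and 0.0804), EXPB3 without xal1-2 replicate 3 (0.0853), XTH9 and XTH21 without WT replicate 1 (0.0584 and 0.0654), and EXPB3, XTH9 and XTH23 without WT replicate 3 (0.0545, 0.0803 and 0.0533). Counts of XTH genes called lower were 0, 3 and 6 without xal1-2 replicates 1, 2 and 3 and 3, 1 and 5 without WT replicates 1, 2 and 3. For expansins they were 0, 2 and 1, and 2, 0 and 1. Over all genes, of which these fits tested 24161 to 24255, they were 43, 201 and 352, and 265, 108 and 499.

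Several XTH genes missed the threshold narrowly, and which of them passed depended on the test. XTH18 (adjusted p = 0.0515) and XTH17 (0.0578) were called by edgeR (0.0475 and 0.0486) and by DESeq2 (0.00419 and 0.0079), and XTH15 (0.0626) by DESeq2 (0.0344) but not by edgeR (0.0775). The authors' deposited table lists 8 XTH genes lower at adjusted p under 0.05, the 5 called here and these 3, and the same 2 expansins, where 3.43% of the genes with an adjusted p in that table are lower and 1.96% higher. XTH15 had 626.6, 492.4 and 755.4 scaled counts in xal1-2, against 901.0, 884.8 and 849.0 in WT (log2 fold change -0.51, SE 0.14). Its genotypes did not overlap; its locus overlaps AT4G14120 on the opposite strand, and the sources used here do not say whether counting used strand.

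XTH7 had the largest standard error of the XTH genes tested. Its scaled counts were 34.2, 183.7 and 211.8 in xal1-2, against 320.2, 422.0 and 720.2 in WT (log2 fold change -2.05, SE 0.54, adjusted p = 0.0591). The mutant mean was 29.4% of the WT mean, and replicate 1 was far below the other xal1-2 libraries. XTH24, also called MERI5, overlapped between genotypes, with 485.1, 278.6 and 662.7 in xal1-2 and 812.0, 631.4 and 594.0 in WT (-0.59, SE 0.25, adjusted p = 0.216). XTH32, the other group III-A gene beside XTH31, had 51.4, 75.4 and 105.0 in xal1-2 and 82.5, 127.8 and 144.4 in WT (-0.63, SE 0.27, adjusted p = 0.221).

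XTH17, XTH18, XTH19 and XTH20 form a group of closely related genes known from different zones of the root. XTH17 had 318.4, 383.3 and 341.5 scaled counts in xal1-2, against 607.9, 674.4 and 396.6 in WT (log2 fold change -0.65, SE 0.17). XTH18 had 367.5, 517.3 and 503.9 in xal1-2, against 848.9, 892.6 and 558.4 in WT (-0.71, SE 0.18). In both genes WT replicate 3 was the low WT library, and without it both were called (adjusted p = 0.00806 and 0.0173). This was the only 1 of the 6 fits leaving out 1 library that called them. In the other fits limma adjusted p was 0.0973 to 0.262 for XTH17 and 0.0809 to 0.25 for XTH18. XTH19 was at -0.24 (SE 0.18, adjusted p = 0.50) and XTH20 at 0.12 (SE 0.18, adjusted p = 0.736), and both overlapped between genotypes.

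XTH18 and XTH19 are neighbours on chromosome 4, both on the minus strand, at 14825757 to 14827211 and 14828712 to 14830224, and their coding sequences are 87.6% identical. Within 120 aligned bases of coding sequence, from base 326 of XTH18 and base 311 of XTH19, 8 bases differ, shown in capitals, and 68 in a row are identical. The stretch is shown because its run of 68 identical bases is the longest that any pair of members of a family shares within its alignment. Reads that lie wholly inside this run cannot be told apart by their own bases, while the 8 differing bases separate the copies. The sources used here do not say how reads that match both genes were counted.
XTH18: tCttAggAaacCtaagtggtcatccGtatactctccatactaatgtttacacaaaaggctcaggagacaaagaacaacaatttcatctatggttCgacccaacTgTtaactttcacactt
XTH19: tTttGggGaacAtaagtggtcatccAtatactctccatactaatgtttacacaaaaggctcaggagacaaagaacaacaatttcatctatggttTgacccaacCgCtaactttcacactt

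XTH12 and XTH13 on chromosome 5 were the most alike of all pairs of members within a family, at 89.4% identity over the coding sequence. XTH13 had 89.0, 149.9 and 111.2 scaled counts in xal1-2, against 194.3, 201.7 and 129.8 in WT (log2 fold change -0.59, SE 0.21, adjusted p = 0.151). XTH12 was at -0.22 (SE 0.25, adjusted p = 0.704). Both overlapped between genotypes. The same cluster, from 23300321 to 23308680, holds XTH25, with no read in any library, and XTH22 (TCH4), known as a touch-induced gene, whose scaled counts of 84.5, 77.2 and 133.2 in xal1-2 and 68.4, 87.1 and 246.8 in WT were highest in WT replicate 3 (-0.25, SE 0.39, adjusted p = 0.745).

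The 4 members known from root hairs were not called, and EXPA7, EXPA18 and XTH14 among them were at a high level. EXPA7 had 553.6, 911.2 and 722.7 scaled counts in xal1-2, against 901.0, 878.2 and 589.5 in WT (log2 fold change -0.12, SE 0.19, adjusted p = 0.757). EXPA18 had 609.5, 953.8 and 714.8 in xal1-2, against 1119, 1010 and 675.4 in WT (-0.29, SE 0.19, adjusted p = 0.441). The same libraries were low in both genes, replicate 1 among the mutant libraries and replicate 3 among WT. Each locus overlaps a gene on the opposite strand, AT1G12570 for EXPA7 and AT1G62978 for EXPA18.

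XTH14 had 1278, 2549 and 1884 scaled counts in xal1-2, against 2458, 2731 and 1414 in WT (log2 fold change -0.21, SE 0.26, adjusted p = 0.716). XTH26, also known from root hairs but at a low level, had 9.1, 38.2 and 40.6 in xal1-2, against 60.8, 72.7 and 32.9 in WT (-1.08, SE 0.49, adjusted p = 0.253). Again xal1-2 replicate 1 and WT replicate 3 were the low libraries of their genotypes. The 12 root hair markers summed to 4060, 6540 and 5204 in xal1-2, against 6903, 7666 and 4519 in WT. By limma or edgeR 0 of them were called, and by DESeq2 1 was called lower. At an unadjusted limma p under 0.05, 2 were lower, against 10.5% of all genes tested.

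**Figure D4:**
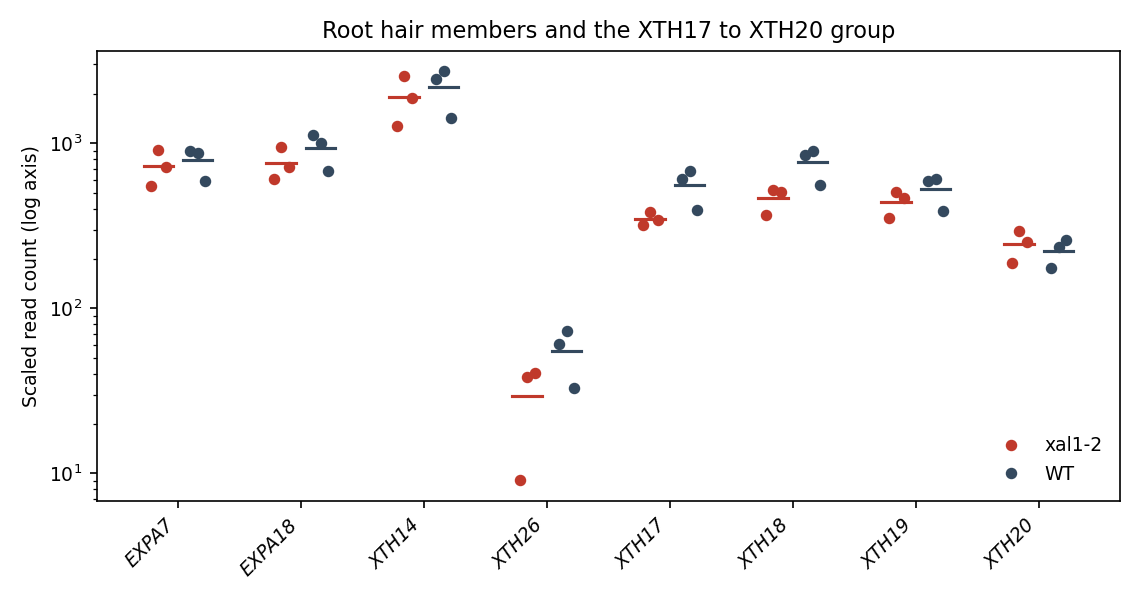
Scaled read counts (log y axis) in each library of 4 members known from root hairs and of XTH17 to XTH20, xal1-2 left of WT and replicates 1 to 3 from left to right, with lines at the means. In all but XTH20, the third WT point is the lowest of WT.

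The same libraries were low in further XTH genes. Relative to the mean of its 2 partners, WT replicate 3 stood at 0.62 and xal1-2 replicate 1 at 0.691 for the summed root hair markers. Of the 46 members with a mean of at least 10, 8 stood under 0.8 in both libraries. These were EXPA7, EXPA18, XTH12, XTH13, XTH14, XTH18, XTH19 and XTH26. Over all 18823 genes at that level, 4.39% stood under 0.8 in both. The limit and the 2 libraries were chosen after the values were seen. EXPA7, EXPA18, XTH14 and XTH26 had already shown these libraries low, so the comparison with all genes is not independent of that choice. The part of this library difference in the genotype values of these 8 genes was not tested beyond leaving the libraries out.

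**Figure D5:**
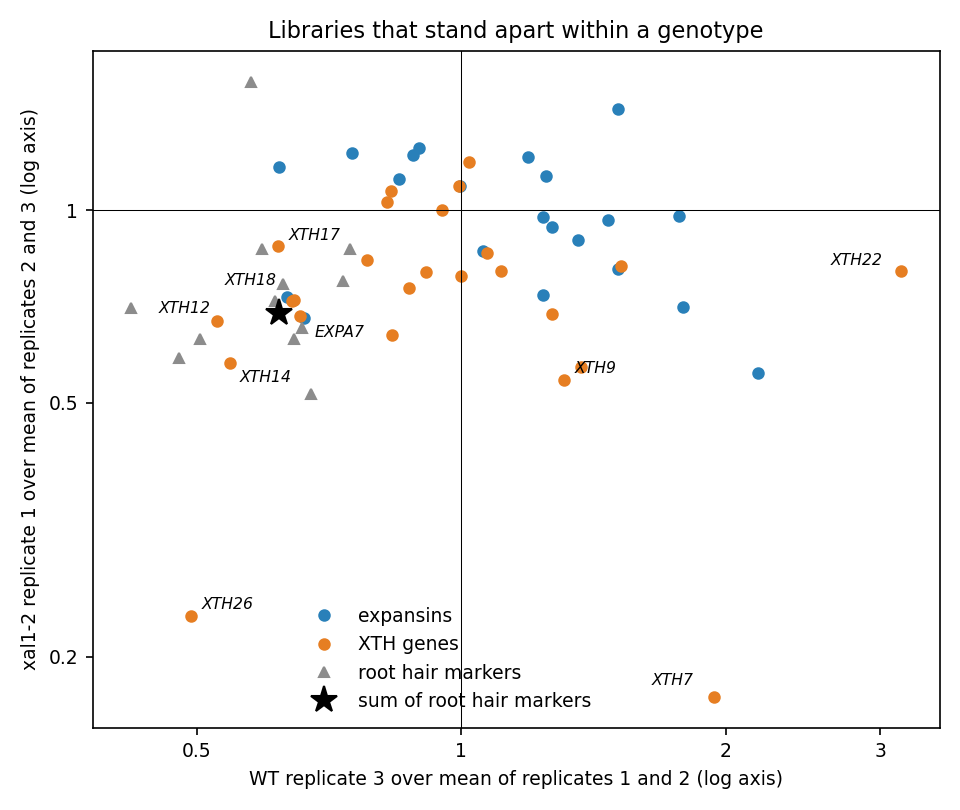
Each point is a gene, placed by its scaled count in WT replicate 3 over the mean of WT replicates 1 and 2 (x axis, log) and in xal1-2 replicate 1 over the mean of xal1-2 replicates 2 and 3 (y axis, log), for members with a mean of at least 10 and for the root hair markers. XTH12, XTH14 and EXPA7 lie near the markers at lower left, while XTH7 was low in the mutant library and high in the WT library.

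The promoters of EXPA7 and EXPA18 were compared because this pair is known to be driven in root hairs through the root hair element (RHE). The windows, read from TAIR10.1, run from 250 bases before to 50 bases after the annotated gene start, on the plus strand at chr1:4276255-4276554 for EXPA7 and chr1:23331313-23331612 for EXPA18. Matches to the RHE consensus on either strand, in capitals, were found in both, starting 78 bases before the EXPA7 start, and 40 bases before and 5 bases after the EXPA18 start.
EXPA7: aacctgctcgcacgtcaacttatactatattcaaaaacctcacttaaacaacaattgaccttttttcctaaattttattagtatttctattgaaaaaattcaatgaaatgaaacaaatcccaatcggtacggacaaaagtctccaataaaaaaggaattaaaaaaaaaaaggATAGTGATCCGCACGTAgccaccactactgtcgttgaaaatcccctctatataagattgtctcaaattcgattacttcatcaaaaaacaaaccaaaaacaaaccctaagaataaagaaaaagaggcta
EXPA18: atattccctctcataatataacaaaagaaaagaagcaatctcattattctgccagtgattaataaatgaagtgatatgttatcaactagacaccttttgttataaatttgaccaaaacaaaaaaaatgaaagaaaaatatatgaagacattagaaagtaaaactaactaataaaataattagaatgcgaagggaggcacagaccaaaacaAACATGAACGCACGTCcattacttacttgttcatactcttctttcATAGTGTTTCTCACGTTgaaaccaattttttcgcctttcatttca

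Within these windows no other member held a match, XTH14 and XTH26 included, and 0.867% of all 27443 protein-coding promoters did. This motif was searched after the library values had been seen. A match is a description of letters and not of a bound site.

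Because XAL1 is a MADS-box factor, the CArG box, the element that MADS-box proteins bind, was searched in the same windows, in the form CC, 6 A or T, GG. It was present in 1 of the 54 members, XTH5, and in 3.05% of all promoters. The XTH5 window lies on the minus strand at chr5:4477041-4477340, and its CArG box, in capitals, starts 65 bases before the gene start.
XTH5: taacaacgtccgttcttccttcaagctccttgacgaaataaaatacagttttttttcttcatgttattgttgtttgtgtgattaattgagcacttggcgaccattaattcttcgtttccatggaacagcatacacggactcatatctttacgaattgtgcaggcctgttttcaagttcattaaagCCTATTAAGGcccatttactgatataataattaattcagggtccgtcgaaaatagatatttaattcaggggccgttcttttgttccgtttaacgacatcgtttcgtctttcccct

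XTH5 had 131.3, 130.4 and 90.9 scaled counts in xal1-2, against 115.1, 131.1 and 126.1 in WT, and was not called (log2 fold change -0.10, SE 0.17, adjusted p = 0.779). None of the 7 called members held a CArG box of this form in this window, as was so for most promoters. Other forms of the element and bases outside the window were not searched. The TATA-box letters TATAAA, counted on both strands, occurred in the windows of 21 of 28 XTH genes and 15 of 26 expansins, against 52.1% of all promoters. CGTGTG, letters of a brassinosteroid response element, occurred in those of 3 XTH genes (XTH8, XTH23 and XTH25) and 4 expansins (EXPA1, EXPA2, EXPA6 and EXLA2), against 6.52%. TGTCTC, letters of an auxin response element, occurred in those of 2 XTH genes (XTH6 and XTH21) and 5 expansins (EXPA5, EXPA6, EXPA7, EXPA8 and EXPA10), against 14.2%, and CACGTG, the G-box, in those of 0 XTH genes and 1 expansin (EXPB2), against 7.68%.

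No alpha-expansin was called. Of 18 tested, 0 passed by limma, edgeR or DESeq2, while 3 were higher and 3 lower at an unadjusted p under 0.05, against 9.02% and 10.5% of all genes tested, and their median log2 fold change was -0.02. EXPA9 had 788.7, 672.5 and 622.1 scaled counts in xal1-2, against 551.5, 551.0 and 486.2 in WT (log2 fold change 0.39, SE 0.11, adjusted p = 0.082), and was called when libraries were scaled by their totals (adjusted p = 0.0488). EXPA1, known from guard cells and from lateral root founder cells, had 499.9, 516.4 and 508.3 in xal1-2, against 406.0, 317.4 and 447.8 in WT (0.39, SE 0.13, adjusted p = 0.108). In these 2 genes every mutant library lay above every WT library.

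EXPA8 had 135.8, 97.6 and 119.1 scaled counts in xal1-2 and 105.3, 80.4 and 83.2 in WT (log2 fold change 0.38, SE 0.17, adjusted p = 0.253). EXPA17, known from the tissue above emerging lateral roots, had 148.4, 139.3 and 113.8 in xal1-2, against 238.8, 190.6 and 133.4 in WT (-0.45, SE 0.20, adjusted p = 0.230). EXPA10 had 22.8, 40.8 and 23.8 in xal1-2 and 34.7, 41.9 and 68.5 in WT (-0.70, SE 0.31, adjusted p = 0.240). All 3 overlapped between genotypes, EXPA17 through WT replicate 3.

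The remaining alpha-expansins with a mean of at least 10, EXPA3, EXPA6, EXPA11, EXPA13, EXPA14, EXPA15 and EXPA20, had log2 fold changes of -0.27 to 0.29 and adjusted p of 0.277 or more. EXPA5, EXPA12 and EXPA16 had 3, 33 and 10 reads over all libraries. EXPA2, known from germinating seeds, had 0 reads. EXLB1 was at -0.14 (SE 0.17, adjusted p = 0.716). Of the remaining XTH genes, XTH8 and XTH16 had log2 fold changes of -0.07 and 0.05 (adjusted p = 0.724 and 0.884).

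Family members outside the 54 added little RNA. The 9 further expansins found in the table had 0 reads in every library. Of 4 further XTH genes with reads, XTH10 alone was called lower, where 2.27% of all genes tested were called lower by limma. XTH10 had 22.8, 28.4 and 30.9 scaled counts in xal1-2, against 63.0, 48.5 and 51.2 in WT. Its log2 fold change was -0.96, and its limma adjusted p of 0.0426 lay close to the threshold of 0.05. The other 3 stayed under 5 in every library.

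Lists of genes that make, trim or acidify the same wall held 1 limma call, where 2.27% of all genes tested were called lower. Among 11 xyloglucan synthesis genes, CSLC4, a glucan synthase that makes the xyloglucan backbone, fell to 261.4, 314.1 and 278.8 scaled counts in xal1-2, against 359.3, 403.3 and 403.0 in WT (log2 fold change -0.45, adjusted p = 0.0469). It was the single call, made by edgeR too and not by DESeq2, and the list had a median of -0.09. At an unadjusted limma p under 0.05, 2 of these 11 genes were lower and 1 higher, against 10.5% and 9.02% of all genes tested. The 3 xyloglucan trimming enzymes and the 10 plasma membrane proton pumps with reads held no call by limma, edgeR or DESeq2. Nor did the 9 primary wall cellulose synthesis genes, the 3 touch genes or the 11 brassinosteroid genes. In that order, 0, 2, 1, 0 and 3 were lower at an unadjusted limma p under 0.05, against 10.5% of all genes tested. Higher at that p were 0, 0, 0, 0 and 1, against 9.02%. The medians of these lists were -0.12, -0.05, -0.12, -0.08 and -0.11.

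Markers of inner root tissues fell beside the XTH genes. By limma, 6 of 10 xylem markers, 4 of 7 endodermis markers and 3 of 4 phloem markers fell, against 2.27% of all genes tested. With edgeR 5, 4 and 3 fell, against 3.07%, and with DESeq2 7, 5 and 3, against 3.54%. Xylem markers summed to 3626 to 4094 in xal1-2 and 4898 to 5881 in WT. Phloem markers summed to 816 to 1197 in xal1-2 and 1524 to 2010 in WT. The largest falls in each list were LAC4 (log2 fold change -0.66, adjusted p = 0.0217), CASP5 (-1.17, adjusted p = 0.00648) and SEOR2 (-1.14, adjusted p = 0.0025). The 5 meristem markers had no call by limma, edgeR or DESeq2, and summed to 699 to 863 in xal1-2 and 694 to 724 in WT. At an unadjusted limma p under 0.05, 1 of them was higher and 0 lower, against 9.02% and 10.5% of all genes tested. The 9 green tissue markers likewise had no call by any of the tools, and 0 passed an unadjusted p under 0.05. No marker of these lists was at 0 in all libraries, and the part of tissue makeup in the XTH and expansin values was not tested.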

How the data were processed

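Whole-root RNA of 3 xal1-2 and 3 WT samples was sequenced as stranded paired-end libraries, and each sample is a biological replicate, per the labels. Tools named per the submitters' processing notes are Trimmomatic 0.39, FastQC 0.11.9, Subread 2.0.1 and DESeq2 with build TAIR10; the sources used here do not give their settings. The deposited table holds a signal per library, gene counts that the authors divided by a size factor, and a mean of it. Further columns give, as the authors deposited them, a log2 fold change with its error, a test score, and raw and adjusted p-values.

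Within 0.001 of a read, 100% of the values above 0 were whole reads once multiplied by their size factor. The planned and main test was limma 3.58.1 (R 4.3.3) with an intensity trend on log2(scaled count + 1), genotype as the only term, over the 24441 genes with reads, with Benjamini-Hochberg adjustment; the 8392 genes at 0 everywhere were not tested. Fold changes on this scale understate those of low genes. edgeR 4.0.16 (quasi-likelihood, TMM, filterByExpr) and DESeq2 1.42.0 on the recovered reads, other scalings, pseudocounts, filters, a replicate block and leaving out libraries were alternatives. edgeR called 1051 genes and DESeq2 1055. With library totals 569 genes rose and 401 fell, against 405 and 556. The tests were tried on simulated data.

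Exon lengths are unions of annotated exons. Sequences and coordinates come from the RefSeq copy of TAIR10.1. Protein sequences were not used here. The named members were those called, those with an unadjusted p under 0.05, the 3 highest per kb of each family, and members grouped by site or cluster; of the other lists, called genes. Members and lists were chosen with earlier results of these data known.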

Additional observations from a re-analysis of the deposited data

How the results depend on the processing

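All 7 called members kept their direction under every alternative. With edgeR, DESeq2, library totals, TMM factors, pseudocounts of 0.1 and 5, a mean of at least 10, and the replicate block, all 7 kept their call; without a filter on genes at 0 they lost it. That last fit, which adds genes with no variance, called 154 genes in all, 0 expansins and 0 XTH genes, and gave an XTH median of -0.25 over all 28. DESeq2 called 8 XTH genes lower, and with library totals 1 expansin was higher. The expansin median was -0.21 in edgeR and -0.23 with a mean of at least 10, each over the 21 expansins that these fits kept, against 25 in the main test. With library totals it was -0.08, where the median of all genes tested was 0.05. The cause of these shifts was not tested further. Leaving out 1 library gave 0 to 2 expansins lower, 0 to 6 XTH genes lower, 81 to 871 genes called, and medians of -0.26 to -0.12 for expansins and -0.57 to -0.37 for XTH genes. Without xal1-2 replicate 1 and WT replicate 3 together, an alternative chosen after seeing the data that leaves 2 libraries a genotype, 12 genes were called, 0 of them expansins or XTH genes, and the expansin median was -0.09. With the fold threshold of 1.5 added, counts were 2 expansins, 5 XTH genes and 703 genes in all. Same-numbered libraries of the genotypes did not deviate together throughout (correlations of 0.01, 0.28 and 0.01). With so few libraries this cannot settle whether the numbers pair the samples, and the labels do not say. With the replicate block 2 expansins, 7 XTH genes and 839 genes in all were called. XTH7 (adjusted p = 0.00822) and XTH17 (adjusted p = 0.0405) were then added to the 5 XTH genes. Members with under 100 reads, such as EXPA3 and EXPB2, allow no statement on small changes at this depth.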
